A study of Mus musculus with 16 samples.

Results

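The regions described here carried H3K4me3 in LIF-ESCs and the Polycomb subunit Suz12 in both cultures, and held no H3K27me3 peak in either. Overlapping H3K4me3 peaks of LIF-ESCs and Myc-ESCs were merged into 36255 regions, of which 31943 held a LIF-ESC H3K4me3 peak. Of the latter, 3099 also had a Suz12 peak within 1000 bp in both cultures. No H3K27me3 peak of either culture lay within 1000 bp of 822 of these regions (26.5%, 95% Wilson interval 25.0 to 28.1%), which made up 2.27% of all merged regions. The remaining Suz12-bound regions comprised 897 with H3K27me3 in LIF-ESCs and 1380 with H3K27me3 in Myc-ESCs only. A further 26720 regions with LIF-ESC H3K4me3 had neither Suz12 nor H3K27me3 in either culture. The 822 regions were chosen by the peak calls, so their H3K4me3, their Suz12 and their lack of an H3K27me3 peak are conditions of the choice and not results.

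Suz12 is a core subunit of Polycomb repressive complex 2 (PRC2), the enzyme complex that methylates lysine 27 of histone H3. H3K4me3 marks the starts of genes that are transcribed or held ready for transcription. In ESCs the promoters of many developmental genes carry both H3K4me3 and H3K27me3 and are called bivalent, and PRC2 is found mainly on DNA rich in CpG dinucleotides.

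The study asked whether Myc activity can stand in for the cytokine LIF in keeping mouse ESCs undifferentiated, and profiled the chromatin of both culture conditions by ChIP-sequencing. All cells were R1 mouse ESCs carrying MycER, a fusion of MycT58A with the estrogen receptor's ligand-binding domain, which 4-hydroxytamoxifen (OHT) switches on. LIF-ESCs received LIF at 100 units per ml and no OHT. Myc-ESCs received 50 nM OHT and no LIF, and both were grown without feeder cells on gelatin in serum with vitamin C. The controls thus carried the fusion protein as well. Of the 16 libraries, 4 were inputs and 2 stood behind each combination of culture and antibody, but a single list of peaks was deposited per combination. Each of these 6 lists gives positions and a MACS score, which is -10 times the log10 of the peak's p-value. The lists hold no read counts and no replicates, so that neither depth nor replicate error is known and nothing could be tested. The intervals given here are 95% Wilson intervals, cover counting error only and treat regions as independent. H3K27me3 was called as short peaks, with a median length of 157 bp in the LIF-ESC list of 3120 and 162 bp in the Myc-ESC list of 16717. A region without such a peak may still hold the mark below the level at which peaks were called.

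DNA under the Suz12 peaks is shown for 5 of the regions, to set the CpG content of a region with long Suz12 cover beside that of regions where the cover differed between the cultures. Each sequence is 200 bp of the plus strand of GRCm38 (RefSeq assembly), read 5′ to 3′ and centred on the highest-scoring LIF-ESC Suz12 peak, and CpG dinucleotides are in capitals. Onecut1 (chr9:74863040-74863239, coding sequence of exon 1) had the longest Suz12 cover, ranked on the smaller value of both cultures, among regions at a protein-coding start. Itpka (chr2:119742927-119743126, intron 1) had far more Suz12 cover in Myc-ESCs. Lef1 (chr3:131112005-131112204, intron 1) and Ripk4 (chr16:97762847-97763046, intron 1) had far less. Id2 (chr12:25100406-25100605, upstream of the gene) had the longest LIF-ESC H3K4me3.
Onecut1: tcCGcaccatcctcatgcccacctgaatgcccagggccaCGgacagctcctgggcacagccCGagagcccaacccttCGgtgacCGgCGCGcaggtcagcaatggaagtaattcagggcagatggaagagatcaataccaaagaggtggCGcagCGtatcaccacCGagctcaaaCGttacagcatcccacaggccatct
Itpka: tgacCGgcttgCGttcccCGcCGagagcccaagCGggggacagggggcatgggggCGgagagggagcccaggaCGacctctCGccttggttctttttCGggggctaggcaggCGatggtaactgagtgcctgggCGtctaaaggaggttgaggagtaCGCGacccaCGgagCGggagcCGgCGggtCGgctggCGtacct
Lef1: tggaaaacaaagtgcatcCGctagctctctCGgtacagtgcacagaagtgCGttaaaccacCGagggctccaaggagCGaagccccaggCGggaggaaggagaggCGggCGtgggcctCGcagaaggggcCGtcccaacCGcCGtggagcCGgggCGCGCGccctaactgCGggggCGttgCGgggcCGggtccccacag
Ripk4: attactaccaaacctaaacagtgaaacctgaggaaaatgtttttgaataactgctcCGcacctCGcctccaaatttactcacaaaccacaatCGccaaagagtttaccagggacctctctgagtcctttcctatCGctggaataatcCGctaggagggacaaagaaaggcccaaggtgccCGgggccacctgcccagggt
Id2: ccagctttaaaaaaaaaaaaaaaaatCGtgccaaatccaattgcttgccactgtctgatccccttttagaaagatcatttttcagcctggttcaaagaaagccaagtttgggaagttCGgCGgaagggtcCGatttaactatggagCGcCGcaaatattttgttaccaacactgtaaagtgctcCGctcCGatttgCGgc
The windows held 11 CpGs at Onecut1, 19 at Itpka, 20 at Lef1, 6 at Ripk4 and 9 at Id2. The CpG-rich windows of Itpka and Lef1 came from regions that differed in opposite directions. None of the 5 held the letters CACGTG (the E-box that Myc and Max bind), CCGGAAG (an Ets site) or GCATGCGC (an Nrf1 site) on either strand.

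The Suz12 cover of the 822 regions was short. Cover is the number of bases in all Suz12 peaks of 1 culture within 1000 bp of a region. In LIF-ESCs it ranged from 131 to 8013 bp with a median of 555 bp (quartiles 248 and 1032 bp), and in Myc-ESCs from 151 to 7278 bp with a median of 872.5 bp. Regions with H3K27me3 in Myc-ESCs only had medians of 1083 and 1868 bp, and those with LIF-ESC H3K27me3 had 1876 and 2654 bp. The highest Suz12 score of a region followed the same order. Its median was 109 in LIF-ESCs and 191 in Myc-ESCs for the 822 regions, 232 and 767 for regions with Myc-only H3K27me3, and 569 and 1463 for those with LIF-ESC H3K27me3. The regions without H3K27me3 therefore lay at the low end of Suz12 cover in each culture, as the plot of cover by class shows.

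**Figure D1:**
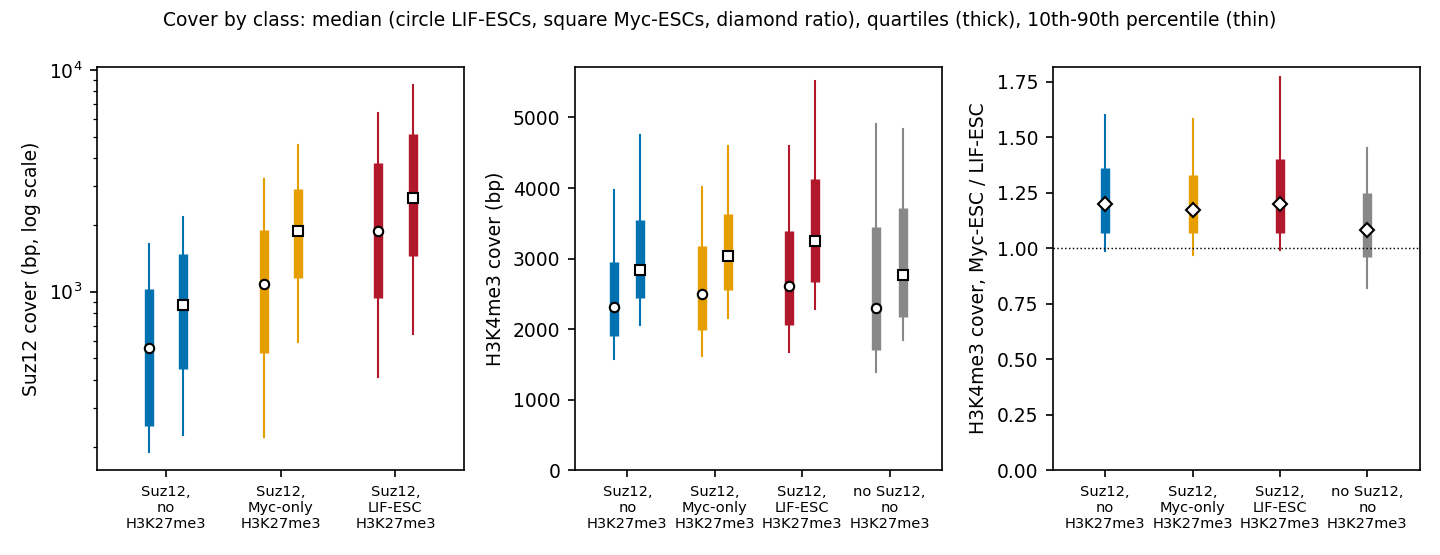
Suz12 cover (left, bp on a log scale), H3K4me3 cover (middle, bp) and the ratio of H3K4me3 cover of Myc-ESCs over LIF-ESCs (right) for each class of H3K4me3 region. Open symbols are medians, with circles for LIF-ESCs and squares for Myc-ESCs, thick bars quartiles and thin lines the 10th to 90th percentile over regions. The median LIF-ESC Suz12 cover was 555, 1083 and 1876 bp from left to right.

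Even so, the classes overlapped. A Suz12 cover of at least 1000 bp in both cultures was found at 179 of the 822 regions (21.8%, interval 19.1 to 24.7%), against 716 of 1380 with Myc-only H3K27me3 (51.9%, interval 49.2 to 54.5%) and 626 of 897 with LIF-ESC H3K27me3 (69.8%, interval 66.7 to 72.7%). At least 2000 bp in both cultures was found at 31 of the 822. When the 3099 Suz12-bound regions were divided by LIF-ESC cover, those without H3K27me3 made up 48.7% (interval 44.0 to 53.5%) of the regions with up to 250 bp. Their share was 34% from 500 to 1000 bp, 8.87% from 2000 to 4000 bp and 1.35% (4 of 296, interval 0.527 to 3.42%) above 4000 bp. By Myc-ESC cover the share went from 60.0% (interval 52.4 to 67.2%) at up to 250 bp to 2.48% (12 of 484, interval 1.42 to 4.28%) above 4000 bp. The share was lower at each longer step of Suz12 cover in each of the cultures, although the intervals of the shortest steps overlap.

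**Figure D2:**
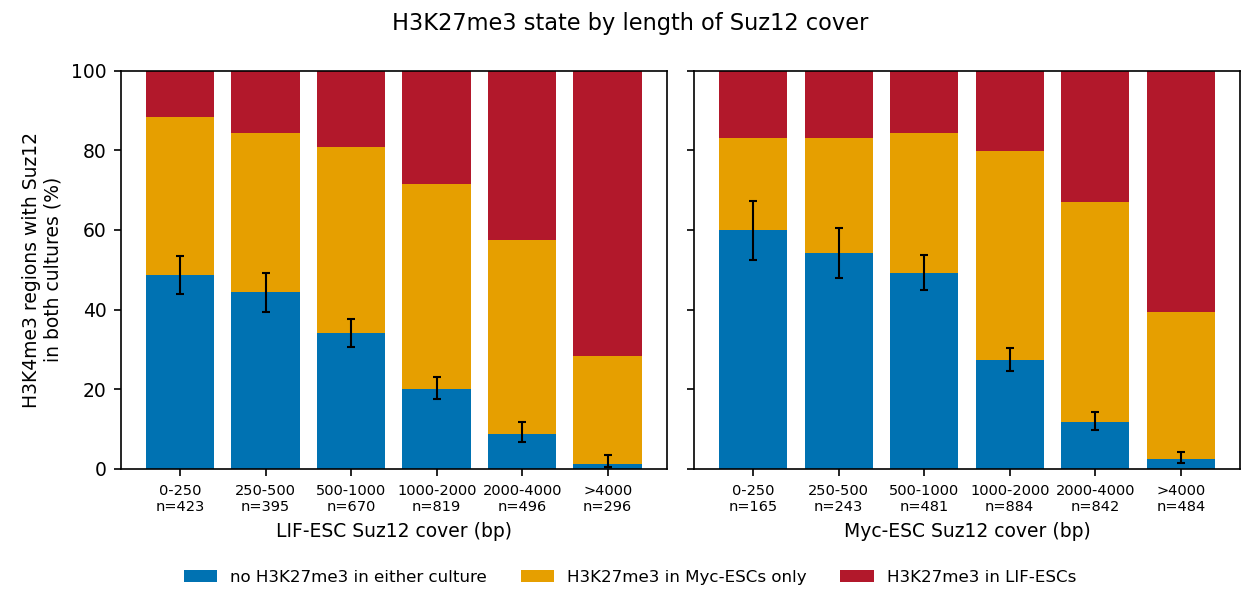
Share of H3K4me3 regions with Suz12 in both cultures (y axis, percent) by H3K27me3 state, against Suz12 cover in LIF-ESCs (left) and Myc-ESCs (right), in bp. Error bars are 95% Wilson intervals of the share without H3K27me3 (blue), which went from 48.7 to 1.35% on the left and from 60.0 to 2.48% on the right.

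Suz12 peaks of the cultures overlapped at 713 of the 822 regions (86.7%, interval 84.2 to 88.9%), against 96.2% and 96.3% in the classes with Myc-only and LIF-ESC H3K27me3. At the median region, 70.1% of the bases in LIF-ESC Suz12 peaks also lay in Myc-ESC Suz12 peaks, against 93.6% and 95.6%. Regions with a single Suz12 peak in each culture numbered 138 (16.8%, interval 14.4 to 19.5%), against 6.23% and 5.91%. The Suz12 peaks sat on the H3K4me3 itself at nearly all members. The H3K4me3 region overlapped Suz12 peaks of both cultures at 810 of the 822, and the midpoint of the strongest LIF-ESC Suz12 peak lay inside a LIF-ESC H3K4me3 peak at 778 (94.6%, interval 92.9 to 96.0%). The corresponding share was 90.1% (interval 88.5 to 91.6%) in regions with Myc-only H3K27me3 and 80.0% (interval 77.3 to 82.5%) in those with LIF-ESC H3K27me3. Only 13 members shared a Suz12 peak with another member.

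Suz12 cover was longer in Myc-ESCs than in LIF-ESCs at 581 of the 822 regions (70.7%, interval 67.5 to 73.7%), where 80.6% of all 3099 Suz12-bound regions were longer. It was at least 2-fold longer at 254 (30.9%, interval 27.8 to 34.1%), close to the 29.6% of all 3099 regions. At least 2-fold shorter cover in Myc-ESCs was found at 62 (7.54%, interval 5.93 to 9.55%), against 4.32% of all 3099. The classes with H3K27me3 gave 4.79% (interval 3.58 to 6.39%) for LIF-ESC H3K27me3 and 2.10% (interval 1.47 to 3.00%) for Myc-only H3K27me3. The median ratio of cover was 1.39 with quartiles of 0.927 and 2.35, while the Myc-ESC list of Suz12 covered 9.38 Mb of the genome and the LIF-ESC list 6.22 Mb. Longer cover at a region thus goes along with a longer list as a whole, and the part that depth plays in it was not tested.

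**Figure D3:**
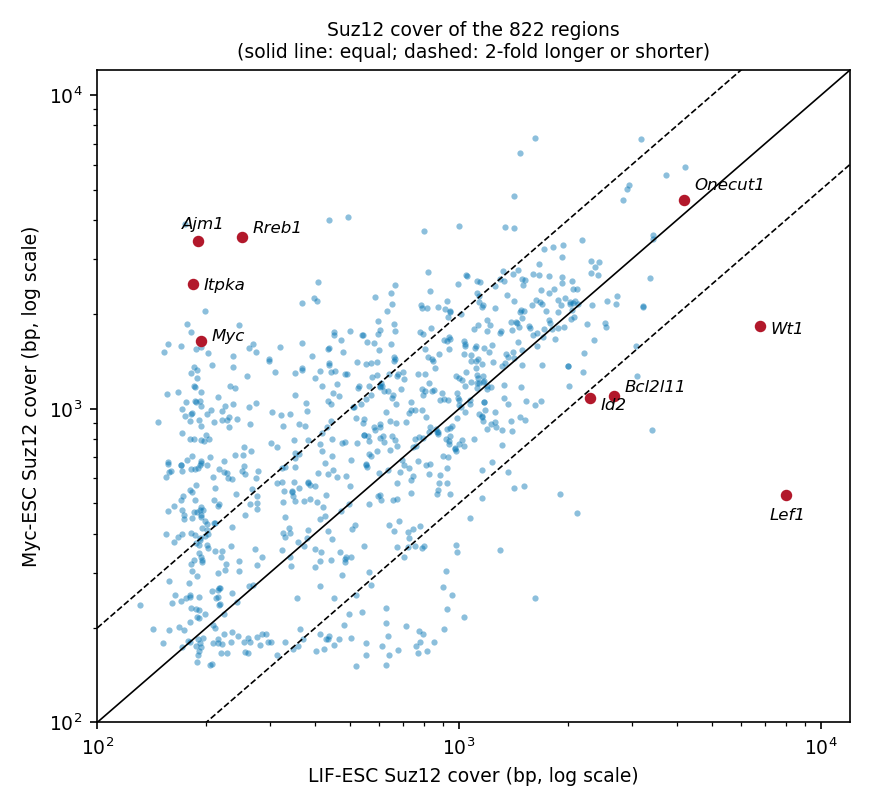
Suz12 cover of each of the 822 regions in LIF-ESCs (x axis) and Myc-ESCs (y axis), in bp on log scales, with named regions in red. The solid line marks equal cover and the dashed lines a 2-fold difference. The 254 regions at least 2-fold longer in Myc-ESCs lie on or above the upper dashed line and the 62 at least 2-fold shorter on or below the lower one.

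The longest Suz12 cover in both cultures, among regions at a protein-coding start, was that of Onecut1, a homeodomain transcription factor. Its cover was 4170 bp (LIF-ESCs) and 4616 bp (Myc-ESCs), with highest scores of 1470 and 3100, and the nearest H3K27me3 peak was a Myc-ESC peak 1340 bp away. Next came Tll1, a metalloprotease of the Bmp1 family, with 3432 and 3472 bp, and Sstr1, a somatostatin receptor, with 3426 and 3593 bp. The nearest H3K27me3 peaks were 500299 bp from Tll1 and 51022 bp from Sstr1, both in Myc-ESCs, so these regions lay far from any called H3K27me3. Csmd2, a large membrane protein, had 2415 and 2669 bp. Lor, the cornified envelope protein loricrin, had 2370 and 2836 bp. Pxdc1 (2315 and 2713 bp) and Lrfn5, a synaptic adhesion protein (2307 and 2955 bp), completed the 7 regions described here. In all 7 the cover was longer in Myc-ESCs, as it was at 70.7% of the 822 regions. The ratios ran from 1.01 to 1.28. Ranking on the smaller value of both cultures favours regions with long cover in each, so that low ratios follow in part from the choice.

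The regions that differed most between the cultures were ranked among those with a protein-coding start and at least 1000 bp of cover in 1 of them. Ajm1, a protein of apical junctions, had 190 bp of Suz12 cover in LIF-ESCs (score 56.4) and 3425 bp in Myc-ESCs (score 2315), a ratio of 18. Its Suz12 peaks lay beside the H3K4me3 region and did not overlap it. The LIF-ESC H3K4me3 peak there was weak (score 60.8), and a Myc-ESC H3K27me3 peak lay 1608 bp from the region. Rreb1, a zinc finger factor that acts downstream of Ras, had 252 and 3535 bp, and Itpka, an inositol trisphosphate kinase, had 184 and 2504 bp. Ripply3, a corepressor that acts with T-box factors, had 177 and 1860 bp, and Nup62cl had 199 and 2050 bp. All 5 LIF-ESC values came from 1 short peak with a score between 55.4 and 64.3, just above the lowest score in the list (50.0), so that the size of each ratio rests on a weak call in LIF-ESCs.

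The opposite order was led by Lef1, a nuclear partner of beta-catenin in Wnt signalling. Suz12 covered 8013 bp there in LIF-ESCs, the longest cover of the 822 regions, in 4 peaks with a highest score of 2615. In Myc-ESCs it covered 531 bp in 2 peaks with a highest score of 93.9, a ratio of 0.0663. For H3K4me3 at Lef1, LIF-ESCs had 2 separate peaks of 3168 and 3597 bp, and Myc-ESCs had 1 peak of 10193 bp that spanned both. Wt1, a zinc finger factor of kidney and gonad development, had Suz12 cover of 6765 and 1834 bp and H3K4me3 cover of 2682 and 7446 bp in LIF-ESCs and Myc-ESCs. At Zfhx3, a zinc finger and homeodomain factor, Suz12 covered 2116 and 465 bp and H3K4me3 3401 and 8088 bp. Ripk4, a kinase of epidermal differentiation (1034 and 217 bp of Suz12), and Il1rl2, an interleukin receptor (1297 and 354 bp), completed the 5. The highest Myc-ESC Suz12 score was 69.7 at Ripk4 and 54.7 at Il1rl2, near the lowest score in that list (50.05). The size of these ratios thus rests on weak calls in Myc-ESCs. At Wt1 that score was 1356 and at Zfhx3 it was 171. In all 5, H3K4me3 cover was longer in Myc-ESCs, with ratios from 1.34 to 2.78, but it was longer there at 87.7% of the members with H3K4me3 in both cultures.

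H3K4me3 was present in both cultures at 805 of the 822 regions. The median cover of H3K4me3 was 2310 bp (LIF-ESCs) and 2845 bp (Myc-ESCs), close to the 2299 and 2762 bp of the regions without Suz12. The ratio of Myc-ESC to LIF-ESC cover had a median of 1.20 (quartiles 1.07 and 1.36), which equalled that of the regions with LIF-ESC H3K27me3 (1.20) and was near that of the regions with Myc-only H3K27me3 (1.17). Regions without Suz12 had a median ratio of 1.08 (quartiles 0.959 and 1.25). Cover was longer in Myc-ESCs at 706 of the 805 (87.7%, interval 85.3 to 89.8%), against 69.9% of all 25730 regions with H3K4me3 in both cultures and 66.9% (interval 66.2 to 67.5%) of those without Suz12. The larger ratio was thus shared by the 3 classes with Suz12, with or without an H3K27me3 peak. The highest H3K4me3 scores of the 822 regions had a median of 354 in LIF-ESCs and 534 in Myc-ESCs. In regions without Suz12 the medians were lower, at 265 and 476. Their upper quartiles were higher, at 1647 and 1988 against 794 and 1020 in the 822. The 822 thus had the higher typical score but held few of the strongest H3K4me3 peaks.

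The longest LIF-ESC H3K4me3 of the set was that of Id2, and the 5 longest at protein-coding starts are described here. Id2 is an inhibitor of bHLH factors and a target of Bmp signals. Its H3K4me3 covered 9050 and 10709 bp in LIF-ESCs and Myc-ESCs, and Suz12 covered 2294 and 1083 bp. The midpoint of the strongest LIF-ESC Suz12 peak lay upstream, at -4414 bp from the Id2 start. The endogenous Myc gene, which encodes the factor that the fusion protein supplies in these cells, followed with 7987 and 8128 bp of H3K4me3. Its Suz12 cover was 194 bp in LIF-ESCs (1 peak in exon 2, score 56.8) and 1643 bp in Myc-ESCs (3 peaks, score 484), a ratio of 8.47, and none of the LIF-ESC bases overlapped a Myc-ESC peak. Ccnd1, the G1 cyclin D1, had 7868 and 7877 bp of H3K4me3 with 170 and 660 bp of Suz12. Its LIF-ESC Suz12 score of 50.4 was the lowest of the regions named here. Bcl2l11, the pro-apoptotic protein Bim, had 7315 and 7706 bp of H3K4me3 and 2677 and 1099 bp of Suz12. Sox11, a factor of neural progenitors, had 7042 and 8173 bp of H3K4me3 and 1997 and 1372 bp of Suz12. Of these 5, Suz12 was longer in Myc-ESCs at Myc and Ccnd1 and shorter at Id2, Bcl2l11 and Sox11. It was longer at 70.7% of the 822 regions. The H3K4me3 cover of the 5 differed by no more than a ratio of 1.18, where the median of the members was 1.20. Ranking on long LIF-ESC H3K4me3 favours low ratios, so that these follow in part from the choice.

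In Myc-ESCs 17 of the 822 regions had no H3K4me3 peak. Only 5 of these lay at a gene start, namely those of Ajm1, Grm4 (a glutamate receptor), Cd70, Kcnd3 (a potassium channel) and Mamld1. They were named because they are few, after their values were seen. Of the rest, 2 neighbouring regions that share a Suz12 peak of 5017 bp in Myc-ESCs lay in the body of Cyp26b1, a retinoic acid-degrading enzyme, with Suz12 cover of 2917 and 3186 bp in LIF-ESCs and 5017 and 7249 bp in Myc-ESCs. A region of 6432 bp on chromosome 17 overlapped the ribosomal RNA pseudogene Rn18s-rs5 (4218 and 5915 bp), where near-identical copies elsewhere make the placement of reads uncertain. Suz12 cover was longer in Myc-ESCs at these 3 regions, as it was at most of the 17 and at 70.7% of the 822. The 3 fell under none of the rules by which regions were named.

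The 822 regions were free of H3K27me3 by choice only up to 1000 bp. Beyond that limit, 35 (4.26%, interval 3.08 to 5.86%) had a LIF-ESC H3K27me3 peak within 10 kb, against 1.12% of all 28617 H3K4me3 regions without H3K27me3 within 1000 bp and 0.947% of the 26720 without Suz12. For Myc-ESC H3K27me3 the count was 116 (14.1%, interval 11.9 to 16.7%), against 3.90% and 3.37%. Within 2000 bp of the region, a Myc-ESC peak lay at 47 members (5.72%, interval 4.33 to 7.52%) and at 0.397% of the regions without Suz12. Most members were nevertheless far from the mark. The nearest peak lay at a median of 546310 bp (LIF-ESCs) and 163638 bp (Myc-ESCs), near the 564004 and 188906 bp of the regions without Suz12. The curves of both kinds of region came together from about 200 kb outwards.

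**Figure D4:**
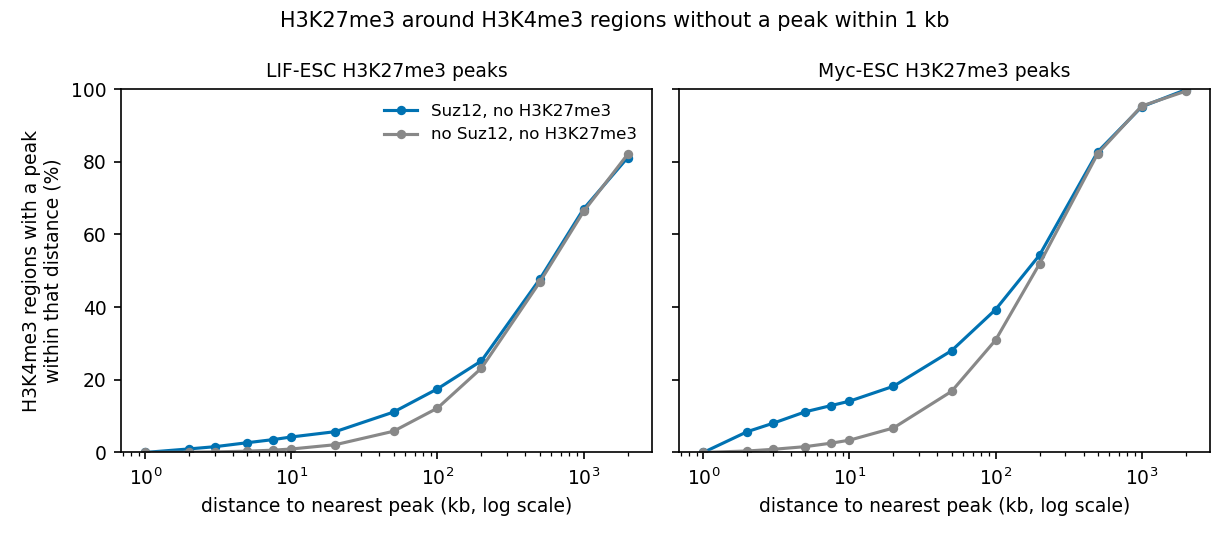
Share of H3K4me3 regions (y axis, percent) with an H3K27me3 peak of LIF-ESCs (left) or Myc-ESCs (right) within a given distance (x axis, kb on a log scale). Blue stands for the 822 regions with Suz12 and grey for the 26720 without Suz12. At 10 kb the shares were 4.26 and 0.947% on the left and 14.1 and 3.37% on the right, and at 200 kb 25.2 and 23.2%, and 54.3 and 51.9%.

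Some members lay just inside the limit. The nearest were Neurog3, a neurogenic bHLH factor, 1006 bp from a LIF-ESC peak, then Lox, a lysyl oxidase of the extracellular matrix, 1013 bp from a Myc-ESC peak, and Ebf1, a B-cell factor, 1040 bp from a Myc-ESC peak. Just outside it were Gm10421 at 967 bp, Sorcs3 at 944 bp and Irx4 at 943 bp. Suz12 cover in LIF-ESCs was 1717, 399 and 1819 bp inside and 4298, 2865 and 1549 bp outside. In all, 27 members lay between 1000 and 1500 bp from an H3K27me3 peak and 25 between 1500 and 2000 bp.

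Gene starts lay within 1000 bp of 587 of the 822 regions (71.4%, interval 68.2 to 74.4%), against 43.9% of all regions with a LIF-ESC H3K4me3 peak. The share was 74.5% (interval 71.5 to 77.2%) in regions with LIF-ESC H3K27me3 and 79.6% (interval 77.4 to 81.7%) in those with Myc-only H3K27me3. Starts of 658 genes were found, 582 of them protein-coding, and 26 of the 658 (3.95%) also lay near another H3K4me3 region that did hold H3K27me3. At 569 members with a protein-coding start, the midpoint of the strongest LIF-ESC Suz12 peak lay downstream of the start at 432 (75.9%, interval 72.2 to 79.3%), much as in regions with Myc-only (76.9%) and LIF-ESC H3K27me3 (76.1%). The median position was 472 bp downstream. It fell within 500 bp of the start at 43.1% (interval 39.0 to 47.2%), against 31.0% (interval 28.3 to 33.9%) with Myc-only and 28.2% (interval 24.8 to 31.8%) with LIF-ESC H3K27me3. Of the 235 members without a gene start, 125 overlapped a gene body and 110 did not. Their median LIF-ESC H3K4me3 cover was 2061 bp, against 2466 bp at protein-coding starts, and their median LIF-ESC Suz12 cover was 565 bp, against 554 bp. The X chromosome held 35 members (4.26%, interval 3.08 to 5.86%), against 3 of 897 regions with LIF-ESC H3K27me3 (0.334%, interval 0.114 to 0.979%), 18 of 1380 with Myc-only H3K27me3 (1.30%, interval 0.827 to 2.05%) and 3.91% of the regions without Suz12.

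The DNA under the strongest LIF-ESC Suz12 peak held a median of 24 CpGs per 500 bp (quartiles 16.2 and 34.8). This was close to the 25 of regions with Myc-only H3K27me3 and the 21 of those with LIF-ESC H3K27me3, and well above the 5 found 5000 bp to the right of the same peaks. Among the members, CpG count went along with Suz12 cover. The median was 21 CpGs in the 206 members with the least cover (ranked on the smaller of the values of both cultures) and 29 in the 206 with the most. A GC content over 50% together with an observed over expected CpG ratio over 0.6, values often used to call CpG islands, was found in 399 of the 822 windows (48.5%, interval 45.1 to 52.0%), against 51.0% with Myc-only and 42.3% with LIF-ESC H3K27me3. It was found in 1.70% of the windows 5000 bp away. In all 3 classes the Suz12 sites were thus richer in CpGs than DNA 5000 bp away. At promoters this richness was not particular to regions with Suz12. In RefSeq promoters of 300 bp, the same limits were passed by 56.6% (interval 52.7 to 60.4%) for the 822 regions. The share was 65.9% with Myc-only H3K27me3, 64.8% with LIF-ESC H3K27me3 and 64.3% (interval 63.4 to 65.1%) without Suz12. The median CpG counts were 18, 22, 20 and 20 in that order.

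Motifs were searched as plain letters on both strands, and a match is not a bound site. For the 822 regions, 627 RefSeq promoters (250 bases before to 50 after the start) were at hand. CCGGAAG was found in 5.42% (interval 3.91 to 7.48%) of them, against 3.93% with Myc-only H3K27me3, 3.45% with LIF-ESC H3K27me3 and 18.8% (interval 18.2 to 19.5%) at regions without Suz12, where all 32817 promoters gave 8.86%. GCATGCGC was found in 1.59%, against 1.66, 0.691 and 5.60%, with 2.71% over all promoters. The promoters of the 822 regions thus resembled those of the other Suz12-bound regions in these letters more than those of the regions without Suz12. CACGTG was found in 7.81% (interval 5.96 to 10.2%), against 7.34, 8.84 and 10.1%, with 7.15% over all promoters. It also occurred in 7.91% of the 500 bp windows at the Suz12 peaks and 4.87% of those 5000 bp away, against 8.19 and 6.52% with Myc-only and 8.14 and 4.35% with LIF-ESC H3K27me3.

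Among genes with a start near a Suz12-bound H3K4me3 region, 658 of 2603 (25.3%, interval 23.6 to 27%) had such a region without H3K27me3. A list of homeobox families picked by symbol stood far below this, with Onecut1 and Vax2 alone of 100 genes (2.00%, interval 0.550 to 7.00%). The list leaves out some homeobox genes. Members such as Mixl1, Dbx2 and Zfhx3 are among those left out, so the share holds for the listed families only. Cadherins gave 3 of 42 (7.14%, interval 2.46 to 19.0%). Sox, Fox, Tbx and Gata factors gave 7 of 44 (15.9%, interval 7.93 to 29.4%), namely Foxo1, Foxo6, Gata2, Sox3, Sox10, Sox11 and Sox13. Potassium and calcium channels gave 8 of 53 (15.1%, interval 7.85 to 27.1%). Signalling pathway lists lay nearer to the value of all genes or above it. Some families of signalling proteins lay lower, with 15.2% for Fgf, Bmp and Wnt ligands and 10.0% for ephrins with their receptors. Feedback inhibitors gave 6 of 12 (50.0%, interval 25.4 to 74.6%): Socs1, Id2, Smad6, Dusp2, Dusp16 and Dusp26. The intervals of the short lists are wide, and only those of the homeobox families and the cadherins lie wholly below the interval of all genes.

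Of the Wnt pathway list, 95 genes had Suz12-bound regions and 19 (20.0%, interval 13.2 to 29.1%) were among the members. They included the ligand Wnt4, the receptors Fzd8 and Fzd9 and the related Lrp4, the secreted antagonists Dkk2 and Wif1, the nuclear factor Lef1 and the target genes Ccnd1 and Myc. Suz12 cover was at least 2-fold longer in Myc-ESCs at 11 of the 19 regions and at least 2-fold shorter at Lef1 alone, with a median ratio of 2.2. Over all 822 regions the shares were 30.9 and 7.54% and the median ratio 1.39. At 9 of the 11, LIF-ESCs had a lone Suz12 peak with a score under 100, as had 137 of the 254 regions with 2-fold longer cover in the whole set, so that most of these ratios rest on a weak call. Fzd8, a frizzled receptor, had 1568 and 1805 bp in LIF-ESCs and Myc-ESCs, and Dkk2, a secreted inhibitor of Wnt receptors, had 1433 and 1885 bp. A Myc-ESC H3K27me3 peak lay 3172 bp from the Dkk2 region. Vax2, a homeodomain factor of the eye, had 1419 and 3769 bp and a Myc-ESC H3K27me3 peak 1718 bp away. Ptpru, a receptor phosphatase, had 1254 and 2463 bp, and Lats2, a Hippo pathway kinase, 946 and 2051 bp. Cav1, the main protein of caveolae, had 1216 and 1843 bp of Suz12 and 1505 and 3222 bp of H3K4me3. Mesp1, a bHLH factor of early mesoderm, had 1158 and 943 bp, and Mcc had 637 bp in each culture.

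The Jak-Stat list, to which LIF signalling belongs, had 11 of 27 genes among the members (40.7%, interval 24.5 to 59.3%), at 12 regions. Over all genes the share was 25.3%. Cytokines and growth factors were Clcf1 (237 and 1477 bp of Suz12 in LIF-ESCs and Myc-ESCs), the chemokine Cxcl5 (465 and 184 bp) and Igf1 (265 and 181 bp). Receptors were Osmr, the oncostatin M receptor (909 and 1656 bp), and Cntfr, the ciliary neurotrophic factor receptor (195 and 325 bp). Both act with the gp130 chain that the LIF receptor also uses. Lyn, a Src family kinase, had 540 and 1715 bp. Socs1, a feedback inhibitor of Jak kinases, had 182 and 321 bp under 4010 and 4079 bp of H3K4me3. The adaptor Dab1 had 2 member regions, with 1335 and 1404 bp at one and 224 and 683 bp at the other. Cover was at least 2-fold longer in Myc-ESCs at 5 of the 12 (30.9% of all 822) and at least 2-fold shorter at Cxcl5 alone (7.54% of all 822). At 4 of the 5 the LIF-ESC cover was a lone peak with a score under 100.

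Of the pluripotency list, 8 of 19 genes with Suz12-bound regions were among the members (42.1%, interval 23.1 to 63.7%), at 9 regions. Over all genes this share was 25.3%. Suz12 was rare in the list, with 19 of its 319 genes with LIF-ESC H3K4me3, against 2603 of 15941 over all genes. Members thus made up 2.51% of those 319 genes, against 4.13% over all genes. Prdm16, a zinc finger methyltransferase of brown fat, had 2 neighbouring regions that share Suz12 peaks. Cover was 1666 and 2667 bp at one and 1625 and 7278 bp at the other, and Myc-ESC H3K27me3 lay 1244 bp from the second. Of its 7278 bp, peaks of 3748 and 1650 bp lay wholly outside the second region, and the latter peak was shared with the first. Myb, a factor of blood progenitors, had 2553 and 1825 bp. Acta1, a muscle actin, had 435 and 1056 bp, and Bik, a pro-apoptotic protein, had 181 and 552 bp. The other members were Id2, Myc, Socs1 and Ccnd1, described above.

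The TGF-beta and Bmp list gave 21 of 62 genes (33.9%, interval 23.3 to 46.3%), against 25.3% of all genes. Ligands were Tgfb2, Tgfb3, Bmp6, Bmp8b and Inhba. Receptors were Tgfbr2, Acvr2a and Bmpr1b, and the inhibitors included Chrd, Nbl1 and Smad6. The Bmp target Id2 was also among them. Cover was at least 2-fold longer in Myc-ESCs at 9 of its 21 regions (30.9% of all 822), 3 of them with a lone LIF-ESC peak scoring under 100, and at least 2-fold shorter at 3 (7.54% of all 822), with a median ratio of 1.78 against 1.39. The MAPK list gave 30 of 117 (25.6%, interval 18.6 to 34.2%), PI3K-Akt 19 of 64 (29.7%, interval 19.9 to 41.8%), Hippo 15 of 46 (32.6%, interval 20.9 to 47.0%) and mTOR 1 of 5. Fgf, Bmp and Wnt ligands as a family gave 5 of 33 (15.2%, interval 6.65 to 30.9%). Semaphorins, plexins and netrins gave 4 of 20, and ephrins with their receptors 1 of 10. Solute carriers gave 12 of 54 (22.2%, interval 13.2 to 34.9%) and Zfp genes 6 of 18. Of 8 Polycomb subunit genes with Suz12, 1 was a member: Bcor, a PRC1 subunit, at 2 regions with 1293 and 2594 bp and with 900 and 271 bp of Suz12, which differed in opposite directions. Cell cycle regulators gave 1 of 8 (Ccnd1), Klf and Sp factors 0 of 5 and ribosomal proteins 0 of 1. Of 14 genes whose chromatin the study discusses, 8 had Suz12-bound regions, and only Myc was a member.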

How the data were processed

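H3K4me3, H3K27me3 and Suz12 ChIP-seq data of LIF-ESCs and Myc-ESCs were used as the 6 peak lists that the authors deposited, each with positions and a MACS score per peak. Per the labels and the study's methods, reads were aligned to GRCm38 with Bowtie2 2.2.3 and peaks called with MACS 1.4.2. Pooling of the 2 libraries behind each list is not given in the sources used here. How depth affected the number and length of the peaks was not tested.

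Regions were built and counted with Python 3.11.15, pandas 2.3.3, numpy 2.4.6 and pysam 0.24.0, with interval code tested on simulated regions. Figures were drawn with matplotlib 3.10.9. Genes were taken from 45756 curated RefSeq transcripts of the same build, sequences from its genome. Pathway lists came from the study's supplementary data, families from gene symbols.

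The members and the lists were chosen with earlier results of these data known. Named regions were the 8 with most Suz12 cover (1 is not reported here), 5 at each end of the Suz12 ratio, 5 with the longest H3K4me3 (all ranked among members with a protein-coding start), pathway list members and those at the limit. A region takes the name of the gene start nearest to its strongest LIF-ESC Suz12 peak. Sequences with untranslated exon bases were passed over. Alternatives were other distances, score limits, list lengths, annotations and windows. Input libraries were not used here.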

Additional observations from a re-analysis of the deposited data

How the results depend on the processing

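Of 56 values recomputed under other settings, 34 stayed within 1.5 times the count or within the interval of the main value. The number of regions depended most on the H3K27me3 lists. It was 2152 when only H3K27me3 peaks with a score of at least 100 counted, 1703 with lists of equal length and 384 with Suz12 scores of at least 100. Cover at least 2-fold longer in Myc-ESCs was found at 26.8% with that Suz12 limit and 27.3% with the limit in all lists (27.8 and 27.4% of all Suz12-bound regions). Cover at least 2-fold shorter was found at 5.75% with lists of equal length, 5.48% with the H3K27me3 limit and 4.46% with the limit in all lists, against 4.90, 4.32 and 3.30% of all Suz12-bound regions. A gene start lay at 75.2% with GENCODE transcripts, 76.9% with lists of equal length, 76.3% with the H3K27me3 limit and 77.4% with the limit in all lists. A Myc-ESC H3K27me3 peak lay within 10 kb at 6.52% with lists of equal length, 7.11% with the H3K27me3 limit and 8.02% with the limit in all lists. With a reach of 0 bp the share was 30.0%, and with 5000 bp it was 5.39%, since a member then has H3K27me3 barred from less or more of the 10 kb. The median CpG count was 26.0 with lists of equal length, 28.0 with the Suz12 limit and 27 with the limit in all lists, and, scaled to 500 bp, 25.5 in windows of 1000 bp and 22.5 in windows of 200 bp. The cause of the other shifts was not tested. No paired analysis was possible because the lists hold no replicates. Depth is unknown, so a missing peak may be a weak one.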
